A study of Mus musculus with 131 samples.

Results

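The 55 cells described here carried a red fluorescent protein (RFP) transgene and were taken from mouse blastocysts rebuilt by diploid complementation, in which embryonic stem cells are injected into a host embryo. They were chosen by name alone, as all cells labelled RFP in the expression table, which holds 95 cells among the 131 samples of the series. The labels give them as C57BL/6J cells with an Actin-RFP transgene from blastocysts at E4.0, and the other 40 cells of the table are host cells labelled GFP, which were not compared here. For a later stage the design text names an Actin-RFP2 stem cell line injected into an Actin-GFP host; the line used for these blastocysts is not stated separately. Each cell was picked by micromanipulator and its messenger RNA amplified as full-length cDNA. No label names the embryo a cell came from, so the 55 cells were treated as 1 sample, and every value below describes cells without a test between them.

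At this stage the inner cells of the blastocyst hold the epiblast, which forms the fetus, and the primitive endoderm, which lines it, while the trophectoderm forms the outer wall and later the placenta. Embryonic stem cells are the cultured counterpart of the epiblast and keep the pluripotency network of Pou5f1, Sox2 and Nanog. On the way to implantation the epiblast passes from a naive state, marked by genes such as Zfp42, Klf2 and Esrrb, to a formative state in which Otx2, Fgf5 and the de novo DNA methyltransferases rise. Such cells divide fast, with a short G1 phase, and draw heavily on glycolysis.

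Depth ranged from 518064 reads in RFP6 to 9562072 in RFP34, with a median of 5584451. A gene was counted as detected with at least 1 read. RFP12 had the fewest genes detected, 2094, the median cell had 4527, and RFP52 had the most, 7768. More reads did not go with more genes: the Spearman correlation between them was -0.10 over the 55 cells, and -0.20 without the 2 cells farthest from the median depth (Pearson 0.02 and -0.11). RFP34, the most deeply sequenced cell, was among the cells with few genes, and RFP54 had 2117 genes from 5777365 reads. When every cell was thinned to 500000 reads the range was still 1376 to 7351 genes.

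The share of reads on mitochondrially encoded genes ran from 0.961% in RFP25 through a median of 2.65% to 62.0% in RFP6. The exact binomial interval for RFP6, which covers counting error only, reached up to 62.1%. Besides RFP6, 3 other cells were above 10%: RFP14 at 21.2%, RFP44 at 16.3% and RFP41 at 10.8%. The other 51 cells lay below that level. Cells with a higher share had fewer genes detected, with a Spearman correlation of -0.63 over 55 cells and -0.61 over the 51 cells below 10% (Pearson -0.34 over 55 cells, and Spearman -0.59 and Pearson -0.27 without the 2 farthest cells). Both measures come from the same library of each cell, so they share its capture and amplification.

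**Figure D1:**
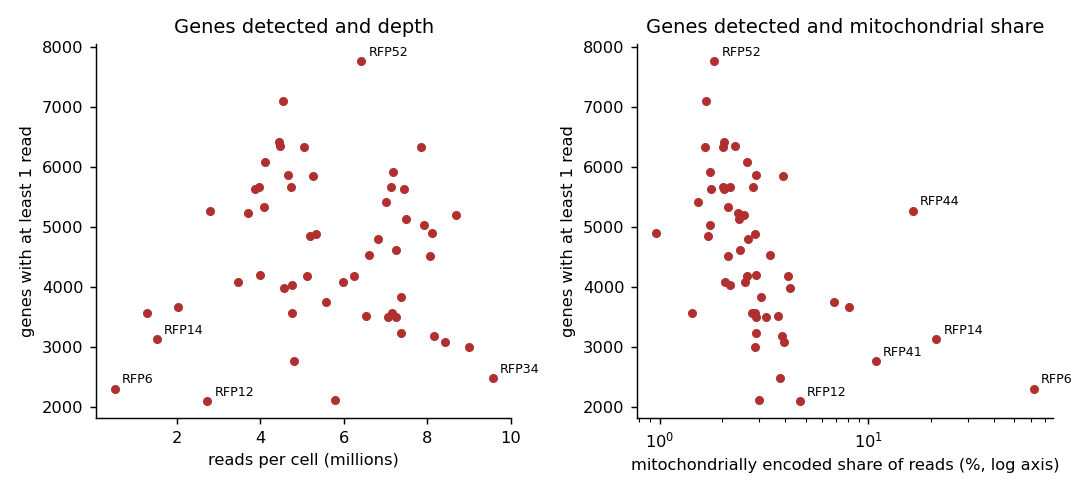
Genes detected in each of the 55 RFP cells against its reads (left) and against its mitochondrially encoded share in percent on a log axis (right); each point is 1 cell. Genes detected spread from 2094 to 7768 over the cells and did not rise with reads. Cells with a high mitochondrial share, led by RFP6 at 62.0%, tended to have fewer genes.

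RFP12, RFP6, RFP14 and RFP22 were least like the rest. Over log2(CPM + 1), where CPM (the usual depth-scaled unit) is a gene's reads as a share of all reads of its cell, their median correlation with the other cells was 0.35, 0.37, 0.38 and 0.40, against a median of 0.55 over all pairs. No pair of cells held identical values, and the highest correlation between 2 cells was 0.73, for RFP9 and RFP37. The counts of variable genes and the principal components are given with and without these cells.

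The 6 genes given as epiblast markers of these cells each reached 10 CPM in at least 50% of cells. Of a wider list of 14 epiblast genes, which includes these 6, 9 did so, against 18.6% over all genes. Nanog, Klf2, Esrrb and Prdm14 were among those that fell short. Tdgf1 (also called Cripto), the Nodal co-receptor, reached 10 CPM in 52 of 55 cells, from 0 CPM in the lowest cell to a median of 1092 and a highest of 4807 CPM in RFP23. Spp1, which codes for the secreted protein osteopontin, reached that level in 52 cells, from 1.23 through 3539 to 10896 CPM. Fgf4, the growth factor by which the epiblast signals to its neighbours, did so in 44 cells (0, 258 and 2977 CPM). Enpp2, which codes for the secreted enzyme autotaxin, did so in 39 cells (0, 383 and 3505 CPM). The 2 transcription factors were read in fewer cells, Otx2 in 31 (0, 36.4 and 705 CPM) and Sox2 in 29 (0, 15.8 and 1520 CPM). As summed reads over all cells, Tdgf1 was at 1388 CPM (exact Poisson interval 1384 to 1392) and Sox2 at 48.7 CPM (47.9 to 49.5), intervals that again cover counting error only.

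At least 5 of these 6 markers reached 10 CPM in 35 of 55 cells, or 63.6% (exact binomial interval 49.6 to 76.2%, taking cells as independent). The same held in 68.6% of the 51 cells below 10% mitochondrial reads. All 6 reached 10 CPM in 13 of the 55 cells. Only 1 marker reached that level in RFP6, RFP12 and RFP44, and 2 did so in RFP14, RFP22, RFP34 and RFP41, a set that includes all 4 cells above 10% mitochondrial reads. A missing marker need not mean a silent gene, since detection followed the read level: genes with 30 to 100 CPM over summed reads reached 10 CPM in a median of 22 of 55 cells, those with 100 to 300 CPM in 38, and those with 1000 CPM or more in 54.

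**Figure D2:**
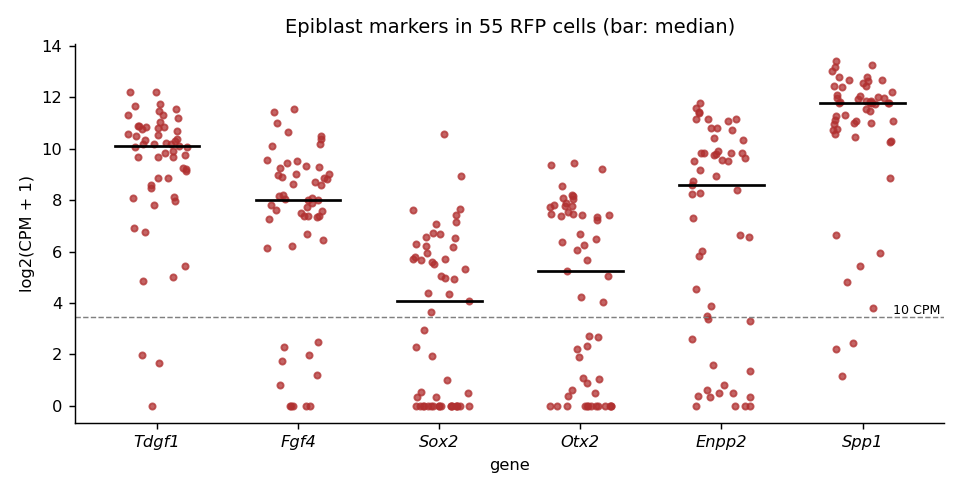
Level of the 6 epiblast markers in each of the 55 RFP cells as log2(CPM + 1); points are cells, bars are medians and the dashed line marks 10 CPM. Tdgf1 and Spp1 lay above the line in 52 cells each, while Sox2, with 29 cells above it, and Otx2, with 31, split between cells well above the line and cells at or near 0.

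Markers of the primitive endoderm were rare. Of 18 trophectoderm genes 1, Krt18, reached 10 CPM in at least 50% of cells, against 18.6% over all genes. Of 15 measured primitive endoderm genes none reached 10 CPM in at least 50% of cells and 10 reached it in no cell (2337 of all 13927 genes did so), among them Gata4 and the basement membrane genes Col4a1, Col4a2 and Lama1. The summed level of that list ran from 0 through a median of 0.505 to 732 CPM. The trophectoderm regulator genes Cdx2, Gata2 and Elf5 were among 7 of the 18 that reached 10 CPM in no cell. Other regulator genes of that list did so in few cells. Gata3 stayed under 10 CPM in 52 of 55 cells (highest 414 CPM), Tead4 in 53 (118 CPM in RFP41), Eomes in 54 (241 CPM) and Id2 in 48 (882 CPM). The keratin genes Krt8 and Krt18, which form the intermediate filaments of simple epithelia, reached 10 CPM in 18 and 29 cells. Their medians were 2.34 and 26.8 CPM, and Lgals3 reached 10 CPM in 18 cells. The summed trophectoderm list ran from 0.713 through 119 to 3688 CPM. Of the 4 measured fibroblast genes none exceeded 74.2 CPM in any cell, a level of Dcn in RFP33.

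A few single cells stood out within these lists. RFP55 held the highest levels of Krt8 (1636 CPM), Krt18 (1524 CPM), Gata3 (414 CPM), Gata6 (207 CPM) and Dab2 (524 CPM), together with Tdgf1 at 1874 CPM and Spp1 at 4405 CPM. RFP44 combined Sox2 at 486 CPM, Pou5f1 at 338 CPM and Zfp42 at 2295 CPM with Krt18 at 225 CPM and Gata3 at 94.0 CPM. RFP22 had the highest Sox2, 1520 CPM, with Bmp4 at 2639 CPM, Id2 at 882 CPM and Eomes at 241 CPM, but Spp1 at 4.42 CPM and no Otx2 read. What these combinations reflect was not tested.

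The 20 nuclear genes with the most reads were mostly housekeeping and growth genes, with 1 pluripotency gene and the epiblast marker gene Spp1 among them. The histone variant gene H3f3b led with 8212 CPM over summed reads, followed by the chaperone gene Hsp90aa1 (7728 CPM), Actb (7139 CPM) and Dppa5a (7126 CPM), an RNA-binding protein gene of pluripotent cells. These values are shares of reads and are not corrected for gene length, so they do not rank transcripts. Dppa5a reached 10 CPM in all 55 cells, from 100.4 CPM in RFP6 through a median of 6144 to 21242 CPM in RFP28. Spp1, Npm1, Eno1 and Mt1 were also among the 20 genes with the most reads.

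Over all 13927 genes, 18.6% reached 10 CPM in at least 50% of cells, the share against which each list is read here. Of 13 core pluripotency genes 11 did so. Besides Dppa5a these were led by Dppa4 in 52 cells, Sall4 in 50, and Utf1 and L1td1 in 48 each. Pou5f1 did so in 28 cells, with a median of 25.3 CPM, while Nanog (13 cells) and the RNA-binding gene Lin28a (12 cells) fell short.

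Of 16 naive genes 5 met that level and of 16 formative genes 4. On the naive side Zfp42, known as Rex1, led with 48 cells and a median of 233 CPM, followed by Nr0b1 in 34 cells and Klf5, Fbxo15 and Dppa3 in 33 each. Klf2 reached 10 CPM in 26 cells, Esrrb in 18 and Tfcp2l1 in 12, and Klf4, Prdm14 and Tbx3 in 1, 2 and 4. On the formative side the de novo methyltransferase genes Dnmt3b and Dnmt3a did so in 48 and 43 cells, Etv5 in 41 and Otx2 in 31. Lef1 and Grhl2 reached it in 23 cells each, and Fgf5 and Pou3f1 in 12 each. These counts were 31.2% of the naive and 25% of the formative list, and the latter was near the 18.6% over all genes.

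Genes of both lists were read in the same cells. At least 3 naive and 3 formative genes reached 10 CPM in 40 of 55 cells, at least 3 naive but fewer formative genes in 9, the converse in 4, and fewer than 3 of both in 2. With at least 5 genes of each required, both lists passed in 24 cells, the naive list alone in 11, the formative list alone in 7 and neither in 13. The mean log2(CPM + 1) of the naive and formative lists had a Spearman correlation of 0.22 across cells (Pearson 0.23, and 0.26 and 0.27 without the 2 farthest cells), and -0.11 with the number of genes detected held fixed. The formative mean followed the number of genes detected more closely (0.71) than the naive mean did (0.41). No opposed axis of naive against formative cells appeared in these list means, which were weak measures for it. Pairs of naive genes had a median correlation of 0.07, against 0.09 over all genes. With genes detected held fixed these were 0.05 and 0.01. A mean of genes that barely co-vary could hardly show such an axis.

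Some naive and formative genes ran against each other. Dppa3, which protects DNA from active demethylation in the early embryo, and Otx2, a driver of the formative state, had a Spearman correlation of -0.40 over 55 cells (Pearson on log2 values -0.42, and Spearman -0.37 over the 51 cells below 10% mitochondrial reads, -0.29 with genes detected held fixed). Dppa3 ran from 0.247 through 28.9 to 1405 CPM. Both genes reached 10 CPM in 15 cells, only Dppa3 in 18, only Otx2 in 16 and neither in 6. Dppa3 gave -0.23 with Dnmt3b, and -0.075 with genes detected held fixed. Fgf5 gave -0.23 with Klf2, and -0.34 with genes detected held fixed, while Otx2 gave 0.47 with Fgf5, 0.25 with Klf2 and 0.18 with Esrrb. These were among 35 gene pairs examined, and Dppa3 with Otx2 was singled out after its values were seen.

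**Figure D3:**
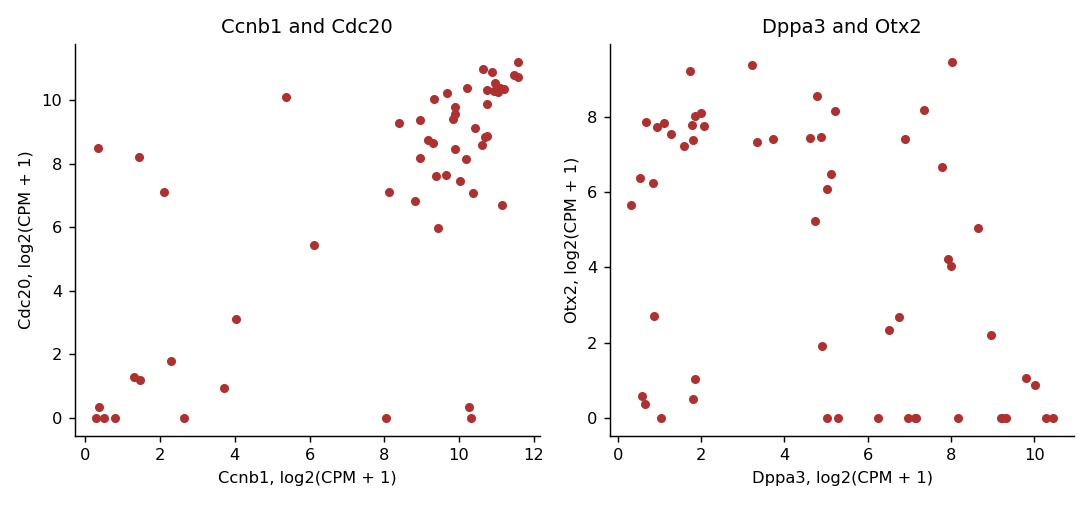
Levels of Ccnb1 and Cdc20 (left) and of Dppa3 and Otx2 (right) in the 55 RFP cells, as log2(CPM + 1) on both axes; each point is 1 cell. Ccnb1 and Cdc20 were high together in 39 cells and low together in 8, while RFP19, RFP44 and RFP51, the cells with the highest Dppa3, had less than 1 CPM of Otx2.

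In the FGF, Nodal, LIF and Wnt lists the share of broadly read genes was near or below that over all genes, and in the BMP list it was 0. Of 18 genes of the FGF pathway 3 reached 10 CPM in at least 50% of cells: the ligand gene Fgf4, the feedback inhibitor gene Spry2 (50 cells, highest 6180 CPM in RFP47) and the target gene Etv5. The receptor genes Fgfr1 and Fgfr2 did so in 5 and 3 cells. Fgf4 and Spry2 had a Spearman correlation of 0.44 across cells, and 0.33 without the cells above 10% mitochondrial reads, while Fgf4 and Etv5 had 0.02 and -0.15. Of 17 Nodal pathway genes 2 met the level, Tdgf1 and the inhibitor gene Skil (48 cells), while Nodal itself did so in 6 cells and its antagonist gene Lefty1 in 6. None of 12 BMP pathway genes and 1 of 10 genes of the LIF pathway, Pim1, met it. Of 14 Wnt pathway genes 3 did, the kinase gene Gsk3b in 46 cells, the beta-catenin gene Ctnnb1 in 41 and Ccnd1 in 29.

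Cell cycle genes were widely read. Of 34 S phase genes 25 reached 10 CPM in at least 50% of cells, and of 40 genes of G2 and mitosis 31 did so, against 18.6% over all genes. At least 50% of the genes of both lists reached 10 CPM in 38 of 55 cells, and neither list did so in 10. The count of S phase genes at that level ran from 3 in RFP6 through a median of 23 to 34 in RFP52, and that of the mitotic genes from 6 in RFP12 through 28 to 40 in RFP7. Pcna, the replication clamp gene, reached 10 CPM in 52 cells, and Hells and Nasp in 52 each. Of the G1 regulators, Cdk4 did so in 46 cells and Ccnd1 in 29, while Ccnd2 did so in none. Cdkn1a, the p21 inhibitor gene, did so in 45.

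The 2 phase lists rose and fell together across cells rather than in turn. Their mean log2 levels had a Spearman correlation of 0.65 (Pearson 0.69, and 0.66 and 0.71 without the 2 farthest cells). Each followed the number of genes detected, at 0.80 for the S phase and 0.82 for the mitotic list. With genes detected held fixed the correlation between the lists was -0.02, so phase and gene detection could not be told apart here.

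Ccnb1, the cyclin that drives entry into mitosis, ran from 0.222 through 817 to 3079 CPM and reached 10 CPM in 44 of 55 cells. Cdc20, which targets cyclins for destruction, ran from 0 through 360 to 2366 CPM and did so in 42. RFP16 was the highest cell for both. Across cells Ccnb1 and Cdc20 had a Spearman correlation of 0.70 (Pearson on log2 values 0.69), and 0.56 with genes detected held fixed. Cdc20 was the gene most like Ccnb1 among all 7002 genes compared, and the centromere histone gene Cenpa the third (0.67). Of the 39 other mitotic genes 31 correlated with Ccnb1 at 0.3 or higher, against 24.1% of all genes and 9 of 33 S phase genes. Ccnb1 itself followed genes detected at 0.55. Mitotic genes did so at a median of 0.44, S phase genes at 0.36 and all genes at 0.31. The counts above were not repeated with genes detected held fixed.

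Ccnb1 correlated less with the other mitotic genes examined as pairs. The values were 0.50 with Plk1, 0.43 with Cenpe, 0.34 with Ccnb2, 0.21 with Ube2c and -0.02 with Hmgb2. With genes detected held fixed they were 0.24, 0.19, 0.34, 0.18 and -0.15. As examples of a mitotic pair that moved together, Ccnb1 and Cdc20, and of another B-type cyclin gene, the start regions of Ccnb1, Ccnb2 and Cdc20 are shown, taken from RefSeq on GRCm38.p6 and running from 250 bases before the start to 10 bases into the transcript. All 3 genes lie on the minus strand, at chr13:100786477-100786736, chr9:70421545-70421804 and chr4:118437334-118437593, and each sequence is written 5′ to 3′ along the gene. Capitals mark CCAAT, the box bound by the factor NF-Y, and TTTGAA or TTCGAA, the core of the cell cycle homology region, found on either strand.
Ccnb1: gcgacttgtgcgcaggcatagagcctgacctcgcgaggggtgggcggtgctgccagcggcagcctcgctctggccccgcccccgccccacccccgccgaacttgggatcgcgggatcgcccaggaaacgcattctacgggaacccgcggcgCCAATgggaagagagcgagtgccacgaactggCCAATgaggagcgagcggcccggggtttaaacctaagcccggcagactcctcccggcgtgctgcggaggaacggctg
Ccnb2: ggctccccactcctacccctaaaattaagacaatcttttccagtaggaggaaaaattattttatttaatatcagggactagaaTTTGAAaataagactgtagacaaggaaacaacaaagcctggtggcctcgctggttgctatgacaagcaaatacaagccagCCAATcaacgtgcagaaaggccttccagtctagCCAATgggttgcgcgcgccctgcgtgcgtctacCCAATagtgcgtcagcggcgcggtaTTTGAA
Cdc20: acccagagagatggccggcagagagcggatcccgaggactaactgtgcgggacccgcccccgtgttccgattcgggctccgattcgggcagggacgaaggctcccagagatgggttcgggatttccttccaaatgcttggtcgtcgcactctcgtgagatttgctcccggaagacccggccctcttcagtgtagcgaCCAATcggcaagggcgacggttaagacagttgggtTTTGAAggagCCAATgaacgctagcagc
The CCAAT letters occurred 2 times in Ccnb1, 3 times in Ccnb2 and 2 times in Cdc20, and the second motif 0, 2 and 1 times. In Cdc20 it began 18 bases and in Ccnb2 once 167 bases before the start. Over windows of this length CCAAT was present in 29 of 38 start regions of the mitotic list, against 34.6% of all 32851 regions, and the second motif in 17 of 38, against 17.5%. For the S phase list the counts were 19 and 6 of 29. A match describes letters and is not evidence of binding.

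Co-variation was summarised for every list as the median Spearman correlation over pairs of its genes with a mean of at least 10 CPM. Over all pairs of the 7003 such genes it was 0.09, and 0.01 with genes detected held fixed. The mitotic list gave 0.27, and 0.13 with genes detected held fixed, and the S phase list 0.19 and 0.08. The formative list gave 0.24 and 0.09 and the naive list 0.07 and 0.05. The 28 ribosomal protein and translation genes gave 0.21 and 0.24, so their co-variation did not shrink when gene detection was held fixed. The 5 trophectoderm genes with enough reads gave 0.33, and 0.36 with genes detected held fixed, and Krt8 correlated with Krt18 at 0.57.

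**Figure D4:**
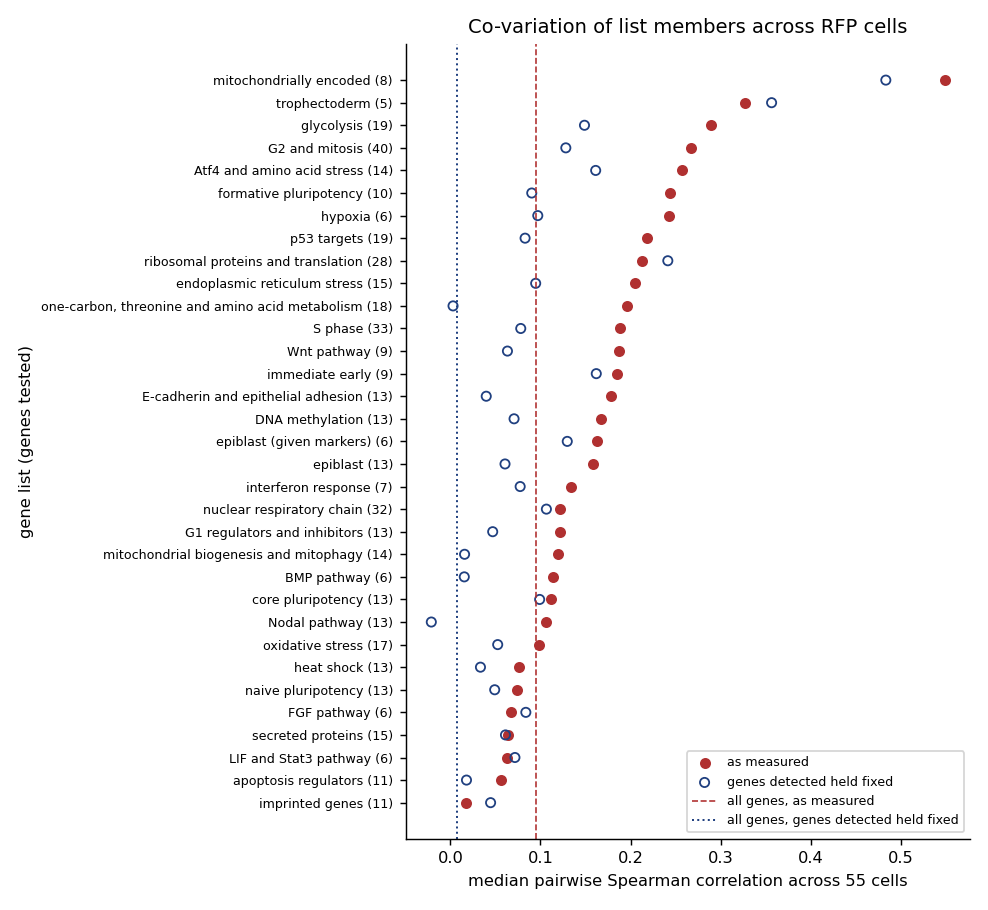
Median pairwise Spearman correlation across the 55 RFP cells for each gene list with at least 5 genes, as measured (filled) and with the number of genes detected held fixed (open); lines mark the same medians over all genes, 0.09 and 0.01. Mitochondrially encoded genes lie highest at 0.55, and most lists move towards 0 when gene detection is held fixed, the ribosomal list being an exception.

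Energy metabolism genes were broadly read and their list means fell as the mitochondrial share rose. All 32 nuclear genes of the respiratory chain and 15 of 20 glycolysis genes reached 10 CPM in at least 50% of cells. The mean of the glycolysis list fell with the mitochondrial share, with a Spearman correlation of -0.68 (Pearson -0.55), and -0.37 with genes detected held fixed. For the mean of the respiratory list the values were -0.63 (Pearson -0.66) and -0.35. Its single genes did not share that value: their median correlation with the mitochondrial share was -0.10 and 1 of 32 was at -0.5 or lower, against a median of -0.23 over all genes, while the glycolysis genes had a median of -0.41. Pkm and Aldoa, enzymes of late and middle glycolysis, correlated with it at -0.56 each and Eno1 at -0.55. Eno1 ran from 0 through 2968 to 9145 CPM and stayed under 10 CPM in RFP12, RFP14 and RFP22. Ldha, lactate dehydrogenase, stayed under it in 6 cells and correlated with Eno1 at 0.68, whereas Ldhb correlated with Ldha at 0.08.

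Across 7003 genes 2.96% had a correlation with the mitochondrial share of -0.5 or lower and 0.186% one of 0.5 or higher. Of the 19 glycolysis genes tested 8 were in the first set. The lowest values were those of the stress granule gene G3bp1 (-0.76), Arf5 (-0.75), the chromatin gene Hmga1b (-0.75) and the replication helicase gene Mcm2 (-0.74). G3bp1 remained at -0.71 without the 4 cells above 10%. Outside the mitochondrial genome the highest values were those of ribosomal protein genes, Rpl35 (0.55), Rpl23a (0.54) and Rps29 (0.54). Of the mitochondrial genes themselves, mt-Cytb ran from 1972 through 9039 to 193430 CPM and mt-Co1 from 2634 through 9073 to 92913 CPM, both highest in RFP6.

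Stress lists differed in how widely they were read. Of 18 oxidative stress genes 14 reached 10 CPM in at least 50% of cells, led by Prdx1 in 54 cells and Sod1 in 53. Of 15 heat shock genes 10 did so, among them Hspa8 in 54 cells and Hspb1 in 41, while the strongly heat-inducible genes Hspa1a and Hspa1b did so in 6 cells each. Of 19 genes of endoplasmic reticulum stress 9 met the level and of 20 Atf4 targets 7. Of 24 p53 targets 6 did so, of 18 apoptosis genes 4 and of 14 immediate early genes 3, near the share over all genes.

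Some stress genes were high in single cells. Asns, asparagine synthetase and an Atf4 target, had a median of 81.6 CPM and reached 14370 CPM in RFP12. Pmaip1, the p53 target Noxa, reached 5473 CPM in the same cell against a median of 109. Cdkn1a ran from 0 through 106 to 4416 CPM in RFP2, and the phosphatase gene Dusp1 from 0 through 129 to 5146 CPM in RFP54. Trp53 reached 10 CPM in 41 cells and correlated with Cdkn1a at -0.03, and Cdkn1a correlated with Mdm2 at 0.04 and with Pmaip1 at -0.09. Over all pairs of the p53 list the median was 0.22, and 0.083 with genes detected held fixed, against 0.09 and 0.01 over all genes. The list means of the 6 stress groups examined fell with the mitochondrial share, for example the Atf4 list at -0.57 (Pearson -0.32) and the p53 list at -0.64 (Pearson -0.22), and the correlations were closer to 0 with genes detected held fixed, at -0.24 and -0.34.

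Variation of single genes was measured as the squared coefficient of variation over the trend for genes of like mean, and 14.4% of 7003 genes reached 2 times that trend. The count was decided in part by a few cells. RFP22 held the highest level of 158 of these 1011 genes, RFP14 of 122, RFP12 of 115, RFP44 of 92 and RFP6 of 78. Of the 20 highest ratios 15 had their highest level in RFP6 and 4 in RFP12. Without the 4 cells above 10% mitochondrial reads 825 genes were called, 688 of them shared with the first set, and without RFP12 and RFP22 as well 630 were called. The Sox2 call was among those lost: its ratio was 3.12 with all cells and 0.46 without these 6, which include RFP22 and RFP44 with 1520 and 486 CPM of Sox2.

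With these 6 cells left out, the highest ratios belonged to the X-linked homeobox gene Rhox5, Dusp1, Dqx1, Cdkn1a and Zfp959. Over all 55 cells Rhox5 reached 10 CPM in 10, with a highest level of 2827 CPM in RFP20. Without the 6 cells the importin gene Kpna2, the pluripotency gene Dppa5a and the FGF feedback gene Spry2 were also in the first 20, as was Enpp2. The spread of log2(CPM + 1) instead gave 259 genes, 3.7% of those tested, at least 0.5 above trend, and was led by Spp1, Eno1, Ldha, Ccnb1 and Enpp2. These were under 10 CPM in 3, 3, 6, 11 and 16 of 55 cells. The most even genes were Rpl4, with a coefficient of variation of 0.35, Npm1 (0.36), Rpl6 (0.37), Rpl27 and Rps23 (0.40 each). Rpl4 nevertheless fell to 46.3 CPM in RFP6 from a median of 2862 CPM.

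Principal components of the 2000 most variable genes gave no strong axis. The first held 9.28% of the variance and followed genes detected, with a Spearman correlation of 0.97 across cells, and the mitochondrial share at -0.72. Its leading genes were Pkm, the glucose transporter gene Slc2a1, Mthfd1 and E2f4 on the side of gene-rich cells and mt-Cytb, mt-Nd4 and mt-Nd5 on the other. Without the 4 cells above 10% mitochondrial reads and RFP12 and RFP22, it held 8.92% and correlated with genes detected at 0.96. Pkm still led the gene-rich side, but genes of the other side included Actb and Amt. The second held 4.35% and correlated with reads at -0.55, with Lars2, Ncl and Id4 on one side and Spp1, Clns1a and H3f3b on the other. RFP22 was the highest cell on it. Without the 6 cells it held 4.30%, correlated with reads at -0.29, and was led by Rps12, Rps27a and Lars2 on one side and Cnbp and Gtf2h2 on the other. The third component held 3.46%, with RFP14 and RFP22 at its ends.

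With a cut at 10 CPM, the cells fell into those with Y-linked reads and those nearly without. Eif2s3y, a translation initiation factor gene, reached 10 CPM in 27 cells, Uty in 20 and Ddx3y in 19. In 35 cells at least 1 Y-linked gene reached 10 CPM and the summed level was between 21.4 and 1025 CPM. In the other 20, or 36.4% (exact binomial interval 23.8 to 50.4%, taking cells as independent), the sum was at most 11.6 CPM. Of these 20 cells 8 had no Y-linked read at all. Among 22 cells with at least 5000 genes detected 8 were without, among them RFP37 with 7104 genes. Of the 51 cells below 10% mitochondrial reads 16 were without. RFP6, RFP14, RFP41 and RFP44, the cells above that share, were all without. The summed level did not follow genes detected (Spearman -0.02, Pearson -0.03, and 0.01 and 0.02 without the 2 farthest cells) or the X-linked share of nuclear reads, which ran from 2.25 to 4.23% (Spearman -0.00, Pearson with the log2 sum 0.06). The X-linked counterparts, looked at after the Y-linked values were seen, reached 10 CPM in more cells, Ddx3x in 48, Eif2s3x in 35, Kdm6a in 30 and Kdm5c in 26. Whether dropout, the line or the embryo accounts for the 20 cells was not tested.

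**Figure D5:**
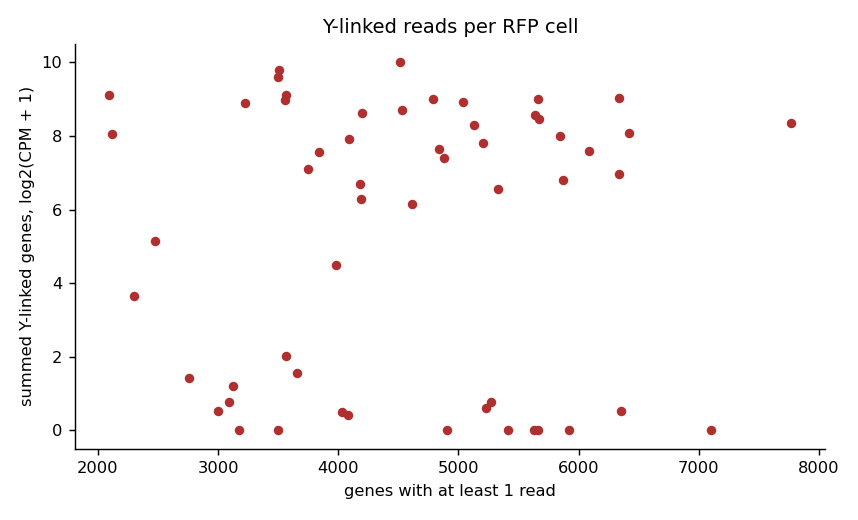
Summed level of the Y-linked genes as log2(CPM + 1) against genes detected in each of the 55 RFP cells; each point is 1 cell. Cells at 11.6 CPM or less, 20 in all, occur at low and at high gene detection, up to 7104 genes.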

How the data were processed

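Full-length cDNA of single picked cells was sequenced. Alignment with STAR 2.7.3a to mm10, counting with featureCounts 2.0.0, trimming with fastp 0.20.0 and DESeq2 1.30.0 are listed, without their order, in the submitters' processing notes. The authors deposited 1 table of 13927 genes whose values are a signal scaled per cell; the sources used here do not say how. In each RFP column every value above 0 (250516 of 250516, tolerance 0.01) was a whole multiple of the smallest, which was taken as 1 read, worth 0.360 to 350 deposited units. The recovered reads were divided by their sum per cell to give CPM. Symbols were matched for 13922 genes.

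Cells are not replicates, so no test between cells was run and no p-value is given. Correlations across cells are descriptions. Trends were lowess fits (span 0.3, statsmodels 0.14.6), and the calling of variable genes was tested on simulated data. Scripts used Python 3.11.15, numpy 2.4.6 and scipy 1.17.1. Named genes are list members, the 20 genes with most reads, highest variation, or 10 at each end of evenness, components and mitochondrial correlation; genes singled out otherwise are said to be. Members, lists and measures were chosen with earlier results of these data known. Alternatives are given in the closing section. Mitochondrial ribosomal RNA and Xist were not analysed here.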

Additional observations from a re-analysis of the deposited data

How the results depend on the processing

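Of 75 alternative values for 20 results, 58 stayed within a limit set for their kind and 17 moved. The limit was the standard deviation between cells for medians, the exact interval for the share of cells and 1.5 times for counts. For co-variation it was the standard deviation over gene pairs. For correlations and the first component it was a fixed error, 0.139, on a scale that stretches high correlations, and took cells as independent. The labels are therefore not comparable between kinds. A correlation of 0.969 moved at 0.959, while the mitochondrial median of 2.65% had a limit of 8.59. The share of cells with at least 5 of 6 markers was 43.6% at 50 CPM. The count of 2593 broadly read genes became 4911 at 25% and 1163 at 75% of cells. The 1011 variable genes became 1697 at 1.5 and 542 at 3 times the trend, 488 with a mean of at least 50 CPM, 1787 on the deposited scale, 630 without the 4 cells above 10% mitochondrial reads and RFP12 and RFP22, and 259 by the spread of log2 values. The last 2 of these, and holding genes detected fixed, were chosen after seeing the data. With genes detected held fixed, correlations became -0.022 for the S phase and mitotic lists and -0.11 for naive and formative, both changing sign, 0.33 for core and formative, and -0.37 for glycolysis and mitochondrial share, and the formative co-variation became 0.090. The first component correlated with genes detected at 0.82 with 500 genes, 0.95 with 4000 and 0.96 without the 6 cells, also chosen after seeing the data. The cause of these shifts was not tested. No paired analysis was possible because the result comes from no test and the cell numbers of the RFP and GFP groups only name cells. All RFP cells form 1 sample of unknown embryos, so spread between cells includes capture and amplification error, and a level under 10 CPM in a cell does not show that a gene was silent there.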

Other observations

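Adhesion, antiviral and imprinted genes were not part of the account above. Epcam, an epithelial adhesion gene of stem cells, reached 10 CPM in 53 of 55 RFP cells with a median of 740 CPM, and the catenin genes Ctnna1 and Ctnnb1 did so in 49 and 41 cells, while E-cadherin, Cdh1, did so in 28 and N-cadherin, Cdh2, in 2. Of 16 adhesion genes 4 reached that level in at least 50% of cells, or 25%, near the 18.6% over all genes. Among interferon-related genes Ifitm1, Ifitm2 and Ifitm3, membrane proteins that restrict virus entry, did so in 45, 52 and 43 cells, whereas Isg15 and Irf7 did so in none.

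Among 19 measured imprinted genes, Snrpn reached 10 CPM in 50 cells and Peg3 in 36. Of the 19 genes 5 (26.3%, near the 18.6% over all genes) reached it in at least 50% of cells. Among DNA methylation genes, 11 of 15 did so: Tet1, which oxidises methylated cytosine, in 50 cells, Trim28 in 47 and Dnmt3l in 37, while Tet2 and Tet3 did so in 8 and 3. Among secreted proteins, Pla2g1b reached it in 45 cells and Igfbp2 in 40, and Trh, the precursor gene of thyrotropin-releasing hormone, in 24 with a highest level of 1361 CPM in RFP37.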
